A study of Mus with 5 samples.

Results

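The T cell effector cytokine genes examined here were Ifng, Tnf, Lta, Ltb, Il2, Il10, Il21, Csf2, Il3 and Tnfsf8, 10 of the 21900 protein-coding mouse genes in the RefSeq table used. They were chosen by name, and a peak counted as theirs when the authors' annotation named the gene for it. By that rule they held 3 of the 1172 RARα peaks without retinoic acid (RA), 1 of the 597 RARα peaks with RA, 27 of the 15812 BATF peaks without RA and 15 of the 9899 BATF peaks with RA.

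Chromatin immunoprecipitation sequencing (ChIP-seq) was performed with antibodies against RARα, a nuclear receptor for RA, and BATF, an AP-1 family transcription factor. The cells were CD8 T cells from the spleens of wild-type (WT) mice. After 24 h of activation and 24 h of rest, the cells received a 1 h treatment that contained 50 nM RA or, in the control, none. The methods name IL-2 for the activation and give 100 U/ml of it for the rest, whereas the treatment labels name IL-7, IL-8, IL-9 or IL-10, depending on the sample. The labels call the cells naive. A normal rabbit IgG sample served as the background control, and its RA status is not given. Each peak list had been called on 2 pooled ChIP files against the same 1 IgG file, so there was 1 list per condition. No spread between replicates could be given, and no difference between lists was tested. The RARα pools contained 22655611 (control) and 22475060 (RA) fragments, the BATF pools 23110180 (control) and 16424269 (RA), and the IgG file 11410673. The BATF RA pool therefore had 71.1% of the BATF control depth. A site with too few fragments to pass the cutoff is missing from a list, so a missing peak does not show that binding was absent. The BATF peak with the fewest fragments had 13 at its summit in the control and 10 with RA, which is 0.563 and 0.609 fragments per 1000000 fragments of the pool (FPM).

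Effector T cells secrete cytokines upon contact with antigen. BATF pairs with JUN proteins on AP-1 sites, often beside IRF4, and is needed for effector differentiation of CD8 T cells. RARα binds DNA as a heterodimer with RXR, and RA is its ligand. Cytokine genes are commonly controlled by distal elements as well as by their promoters.

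BATF peaks were assigned to most of the cytokine genes and RARα peaks to few. The control lists differ in size, with 15812 BATF and 1172 RARα peaks. The shares over all genes differ likewise and are given beside the counts. The BATF control list held a peak for 8 of the 10 genes, where 48.6% of all protein-coding genes had one, and the BATF RA list for 9, where 38.2% had one. Il2 had no peak in either list, and Il3 had one only with RA. The RARα control list held a peak for Ifng, Lta and Csf2, 3 of the 10 genes against 7.18% of all protein-coding genes. The RARα RA list held a peak for Csf2 alone, 1 of the 10 against 3.19%. Most of these peaks lay far from the gene. Limited to peaks within 10 kb of the gene body, BATF peaks were present at 6 of the 10 genes in the control (41.5% of all protein-coding genes) and at 4 with RA (31.3%). RARα was then present at 1 gene (Lta) in the control and at 0 with RA, against 3.31% and 1.29% of all protein-coding genes.

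**Figure D1:**
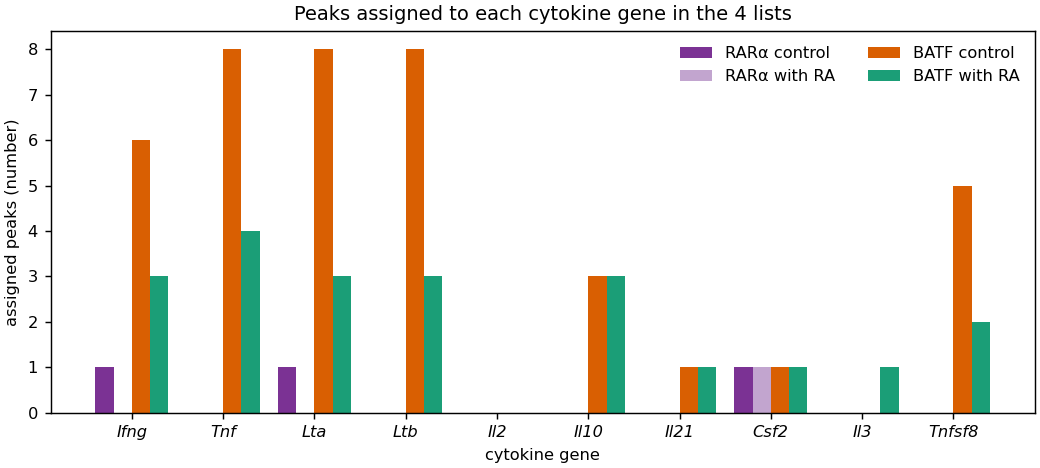
Number of peaks (y axis) that the annotation assigned to each cytokine gene (x axis), with 1 bar for each of the 4 peak lists; a peak that names several genes is counted once for each. BATF control bars reach 8 for Tnf, Lta and Ltb, which share peaks, and 6 for Ifng, while no RARα bar is above 1 and Il2 has none.

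Ifng encodes interferon-γ, the signature cytokine of cytotoxic T cells. Its 1 RARα peak, in the control, lay at chr10:118419081-118419516 (mm10), 21530 bp from the gene, which spans chr10:118441046-118445894. The peak was classed as intergenic, and its annotation also named Tmevpg1, the long noncoding RNA gene beside Ifng. It held 20 fragments at its summit, or 0.883 FPM (95% exact Poisson interval 0.539 to 1.36), with a fold enrichment over IgG of 5.05. This fold ranked 104th of the 1172 RARα control peaks. With RA no RARα peak was called there, and the nearest one lay 672385 bp away.

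BATF was called at the same place in both conditions. The control BATF peak (chr10:118419076-118419458) had 49 fragments and a fold of 11.7, and its summit was 26 bp from the RARα summit. With RA the overlapping BATF peak had 27 fragments and a fold of 8.62. These were 2.12 FPM (1.57 to 2.80) and 1.64 FPM (1.08 to 2.39), so the counting intervals overlapped. These intervals cover counting error only, not differences between cell samples.

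Ifng had 5 further BATF peaks in the control. The strongest, chr10:118480855-118481300, was 34961 bp from the gene on the other side, with a fold of 13.4 without RA and 13.7 with it. The peak at 24331 bp had 42 fragments and a fold of 5.31 in the control, against 20 and 3.95 with RA. The peaks at 23130 bp (fold 5.62) and 31515 bp (fold 7.48) had no overlapping RA peak, but an RA peak lay 786 bp and 2963 bp from them. These RA peaks were the ones that overlapped the peaks at 24331 bp and 34961 bp. Only the weakest control peak, at the gene start, had none within 5 kb. That peak (chr10:118440618-118441315, promoter class) had 23 fragments and a fold of 3.95, and ranked 12924th of the 15812 control peaks.

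Tnf, Lta and Ltb encode tumor necrosis factor and the lymphotoxins α and β, and lie side by side on chromosome 17. The gap is 3062 bp between Ltb and Tnf and 1158 bp between Tnf and Lta. Their peaks are therefore not independent, since more than 1 of these genes was named by 7 of 11 BATF peaks in the control and 3 of 5 with RA. Each of those 7 carried at least 14 gene names, so the assignment does not single out a cytokine gene. The RARα control peak at Lta, chr17:35205240-35205523, lay inside the gene (chr17:35203165-35205578) and was the only RARα peak of promoter class among these genes. Its annotation also named Mir6974, and the values were 37 fragments, 1.63 FPM (1.15 to 2.25), and a fold of 3.83. Here the IgG level was 3.10 times the lowest level of the list, against 1.10 times at the Ifng peak. With RA the nearest RARα peak lay 874999 bp away.

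The BATF peak at the same part of Lta (chr17:35204601-35205574) had 48 fragments in the control but a fold of only 3.23, as the local IgG level was 4.89 times the lowest. Its summit was 50 bp from the RARα summit. No BATF peak overlapped it with RA, and the nearest, the RA peak at Tnf, lay 3219 bp away. At Tnf, 1 wide BATF control peak (chr17:35199860-35202294) extended over most of the gene and past its higher-coordinate end (35202007), with 63 fragments and a fold of 7.02. Its annotation, like that of the Lta peak, also named Mir6974. The overlapping RA peak (chr17:35200363-35201382) stayed inside the gene. It had 27 fragments and a fold of 3.42, 48.6% of the control value, the largest fall among the overlapping pairs (log2 difference -1.04). The levels were 2.73 FPM (2.09 to 3.49) and 1.64 FPM (1.08 to 2.39), and these intervals overlapped as well. IgG at this site was 2.80 times the lowest level of the control list and 3.55 times that of the RA list.

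At Ltb, the control peak over the gene start (chr17:35193718-35194900) had 40 fragments and a fold of 4.05, against 20 and 3.48 with RA. Mir6973a was also named by this control peak and by the next one. The second Ltb peak (chr17:35195300-35196157, fold 3.51) had no overlapping RA peak, and the RA peak of the first lay 916 bp away. The remaining 7 control peaks of the cluster were those that named several of these genes, and they had folds of 3.95 to 6.54. The highest of these, 14040 bp from Lta and nearest to Nfkbil1, had a fold of 6.54, and 5.44 with RA. The one that lay 4523 bp from Lta was 4.94 in the control and 5.47 with RA. The one without an RA peak within 5 kb, chr17:35179338-35180177, lay 14330 bp from Ltb and had a fold of 4.28. The strongest BATF peak within 50 kb of the cluster was not assigned to any cytokine gene. It lay 25517 bp from Lta, named Atp6v1g2 and Nfkbil1, and had a fold of 19.1 in the control and 15.1 with RA.

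Il10 encodes interleukin-10, a cytokine that restrains inflammation, and held the strongest BATF binding among these genes. The peak at chr1:131010209-131011095, 8750 bp from the gene, had 161 fragments and a fold of 41.4 in the control, rank 26 of the whole list. With RA it had 122 fragments and a fold of 40.7, rank 16. The level was 6.97 FPM (5.93 to 8.13) without RA and 7.43 FPM (6.17 to 8.87) with RA. The IgG level at the control peak was at the lowest level of the list. The annotation of this peak also named Il20, Il19 and Mapkapk2. A second peak, chr1:131022158-131023641, lay inside Il10 in its last intron and had folds of 19.4 and 18.9. The authors' class for it was promoter in the control list and exon in the RA list, although the position was annotated alike. The third, 25675 bp from the gene, had 8.23 in the control and 8.73 with RA. All 3 Il10 peaks were thus called in both conditions, and no RARα peak was assigned to Il10.

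Il21 encodes interleukin-21, which acts on B cells and sustains CD8 T cells. Its single BATF peak, chr3:37292690-37293014, lay 60054 bp from the gene and nearer to Cetn4 (15613 bp). In the control it had 101 fragments and a fold of 26.1, rank 116 of the list. With RA it had 57 fragments and a fold of 19.2, rank 193. The levels of 4.37 FPM (3.56 to 5.31) and 3.47 FPM (2.63 to 4.50) had overlapping intervals. Il2, which encodes the T cell growth factor interleukin-2 and lies 96805 bp from Il21, was named by no peak in the 4 lists. The nearest BATF peak to Il2 was that of Il21, 166736 bp away in the control.

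Tnfsf8 encodes CD30 ligand, a TNF family member on activated T cells. Its strongest BATF peak, chr4:63875278-63875971, was 13770 bp from the gene and had a fold of 18.4 without RA and 18.2 with it. The levels were 3.07 FPM (2.40 to 3.88) and 3.29 FPM (2.47 to 4.29). The peak 36949 bp from the gene had folds of 4.61 and 3.85. The other 3 control peaks had no RA peak within 5 kb. They lay in intron 1 (chr4:63859829-63860115, fold 3.64), over the gene start (chr4:63861381-63861712, fold 2.43) and 7564 bp away (chr4:63869072-63869513, fold 4.61). The one over the start had 31 fragments, but IgG there was 4.19 times the lowest level, and its fold ranked 15771st of 15812.

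Csf2 and Il3 encode the hematopoietic growth factors GM-CSF and interleukin-3 and lie 15186 bp apart. Csf2 held the 1 RARα site called in both conditions. This intergenic site lay 83908 bp from Csf2 and only 31359 bp from P4ha2, and its annotation also named Pdlim4, P4ha2 and 4933405E24Rik. The control peak (chr11:54163027-54163362) had 26 fragments, 1.15 FPM (0.750 to 1.68), and a fold of 3.40. With RA the peak (chr11:54162995-54163279) had 40 fragments, 1.78 FPM (1.27 to 2.42), and a fold of 5.19. It ranked 407th in the control list of 1172 and 27th in the RA list of 597. The 2 intervals overlapped, and IgG was 2.41 and 2.33 times the lowest level of the lists. No BATF peak overlapped the site, and the nearest was 12794 bp away in the control and 51307 bp away with RA.

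That BATF control peak (chr11:54149738-54150233) was also the one assigned to Csf2, 97037 bp from that gene. Its fold was 6.52, and it had no RA peak within 5 kb. A BATF peak closer to Csf2 was called in both conditions but was assigned to neither Csf2 nor Il3. Its annotation named 4933405E24Rik. In the control (chr11:54214796-54215242) it lay 32028 bp from Csf2 and 49843 bp from Il3, with 23 fragments and a fold of 4.460. The overlapping RA peak (chr11:54214586-54215290) had 25 fragments and a fold of 6.002. With RA, 1 BATF peak named Csf2 and Il3, at chr11:54294239-54294559, 26960 bp from Il3 and closer to Acsl6 (9246 bp). It had 13 fragments and a fold of 4.63, and the nearest control peak lay 78997 bp away. The counts of genes with a BATF peak thus rest, for Csf2 and Il3, on peaks nearer to other genes.

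**Figure D2:**
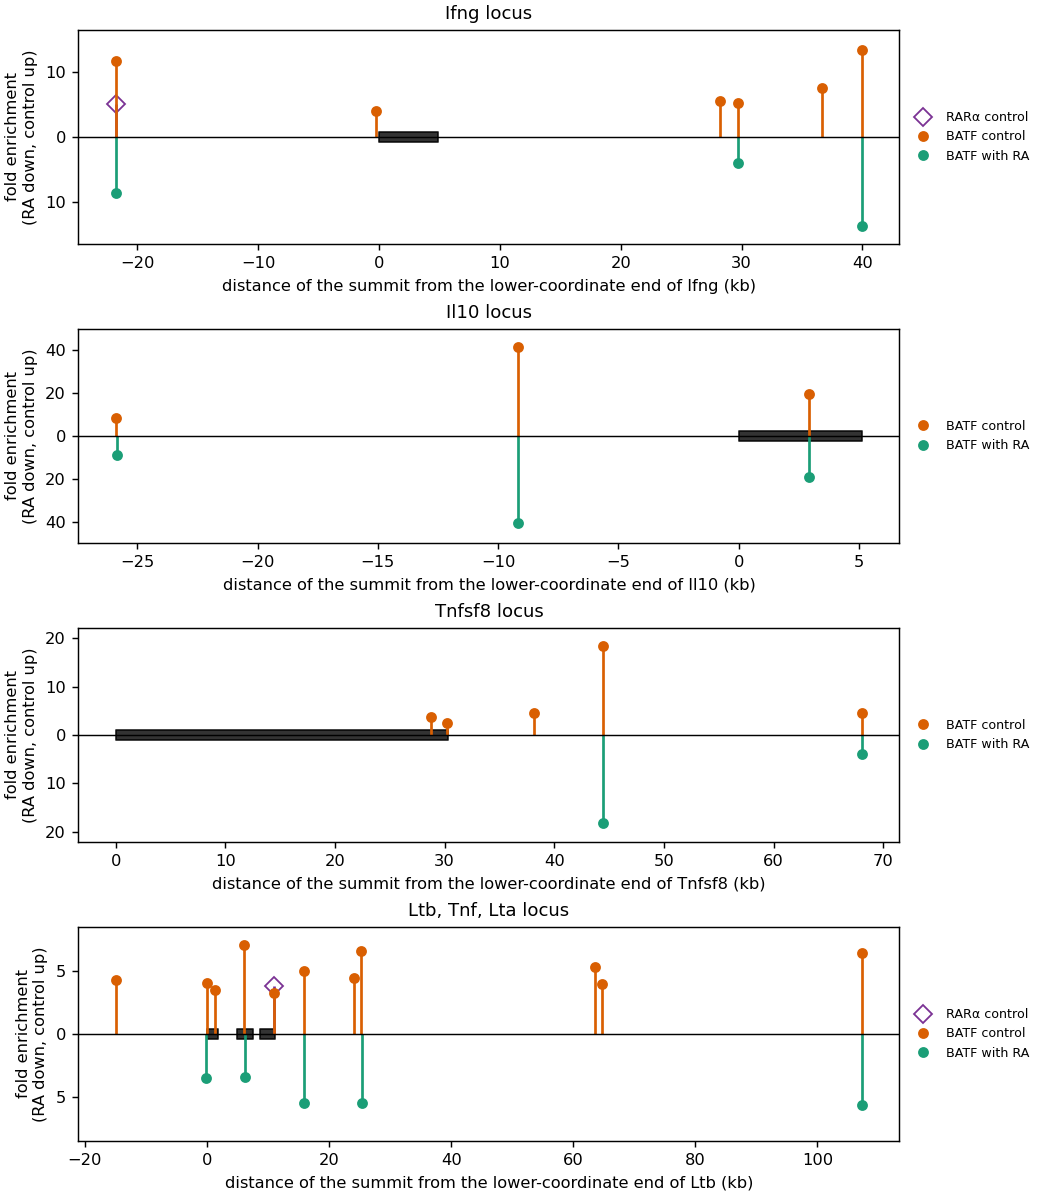
BATF (filled circles) and RARα (open diamonds) peaks at 4 loci: x axis, distance of the peak summit from the lower-coordinate end of the gene named under each panel, in kb; y axis, fold enrichment over IgG, drawn upward for control and downward for RA, with genes as black boxes. The tallest Il10 and Tnfsf8 peaks have a counterpart of similar height with RA (41.4 and 40.7, 18.4 and 18.2), the peaks at the starts of Ifng and Tnfsf8 have none, and each of the 2 RARα diamonds sits on a BATF control peak.

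RARα and BATF coincided at 2 of the 3 RARα control peaks of these genes, at Ifng and Lta. Over the whole list, 53.4% of the RARα control peaks overlapped a BATF control peak. Seen from BATF, 2 of the 27 control peaks overlapped a RARα control peak, against 3.92% of all BATF control peaks. With RA, none of the 15 BATF peaks overlapped the 1 RARα peak, that near Csf2, which had no BATF overlap in the control either. The overlap over the whole RA lists was not computed, so no change in coincidence with RA is drawn from this. Of the 3 RARα control peaks, 2 had no overlapping RARα peak with RA, as did 91.6% of all RARα control peaks.

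Of the 27 BATF control peaks, 14 had an overlapping RA peak and 13 did not. The share without one was 45.6% over all BATF control peaks. Allowing 5 kb, 6 of the 27 had no RA peak, against 30.1% of all. For some of the others, the RA peak within 5 kb was one that overlapped a different control peak. The 6 without an RA peak were the start of Ifng, the 3 peaks at Tnfsf8, the peak 14330 bp from Ltb and the Csf2 peak. In the other direction, 1 of the 15 RA peaks, that of Il3 and Csf2, had no overlapping control peak, against 6.39% of all RA peaks.

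The 13 control peaks without an overlapping RA peak were weaker than the 14 with one. Their median fold was 4.28 (2.43 to 7.48) against 7.63 (4.05 to 41.4), and their median fragment number 31 against 50. The same order held over the whole list, with medians of 4.52 for the 7207 peaks without and 6.72 for the 8605 with an overlapping RA peak. The lower depth of the RA pool moved with this difference, and its part in it was not tested.

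At the 14 overlapping pairs the fold was lower with RA in 11 (78.6%, Wilson 95% confidence interval 52.4 to 92.4), against 75.5% of all 8605 overlapping pairs. That interval covers counting error only and treats the pairs as independent, although several lie at the same gene. The median fold of the 14 pairs moved from 7.63 to 7.13. The median log2 difference was -0.20 for the cytokine genes and -0.27 for all pairs. The 3 pairs that were higher with RA lay at Ifng (34961 bp), Il10 (25675 bp) and Lta (4523 bp). In FPM 9 of the 14 were lower (64.3%), against 77.1% of all overlapping pairs. With pileup over IgG without the added constant, 8 were lower (57.1%), against 66.9%. The share for the cytokine genes was thus above that of all pairs in fold and below it in both other measures. None of the 14 pairs had separate counting intervals in FPM, while 2.36% of all overlapping pairs did.

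**Figure D3:**
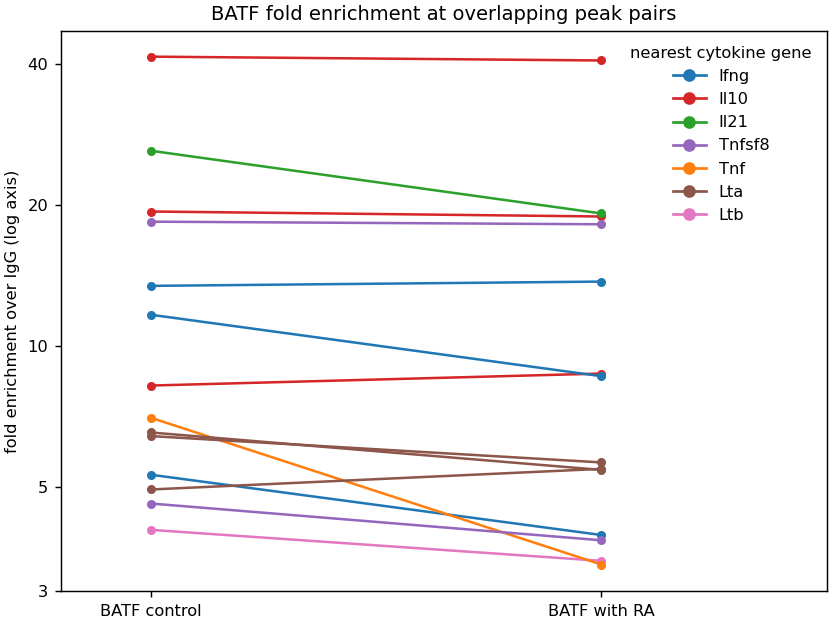
Fold enrichment over IgG (y axis, log scale) at the 14 BATF control peaks of the cytokine genes that overlap a BATF RA peak; each line joins the control value (left) to the RA value (right) and is colored by the nearest cytokine gene. Lines of Il10 and the tall Tnfsf8 peak run nearly level, while the Tnf line falls from 7.02 to 3.42 and the Il21 line from 26.1 to 19.2.

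The highest folds lay at intergenic peaks. Of the 27 BATF control peaks, 15 had a fold of at least 5, against 58.4% of the list. The 19 intergenic peaks had a median fold of 6.42 (3.95 to 41.4) and the 8 peaks of promoter class 3.80 (2.43 to 19.4). Over the whole control list the order was the other way round, with 5.31 for intergenic and 5.53 for promoter peaks. With RA, intergenic peaks had the higher median in the whole list too, 5.70 against 5.11 for promoter peaks. For the cytokine genes with RA it was 7.13 at 12 intergenic and 3.45 at 2 promoter peaks. The IgG level in the control differed by class as well. Its median was 2.80 times the lowest level at the 8 promoter peaks of the cytokine genes and 1.68 times at the 19 intergenic peaks, against 1.75 and 1.43 for all promoter and intergenic peaks. Fold has the IgG level as its divisor, so these measures are not independent, and the part of IgG in the class difference was not tested. Of the peaks at a gene start or inside a gene, 1 (in Il10) had a fold above 10.

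**Figure D4:**
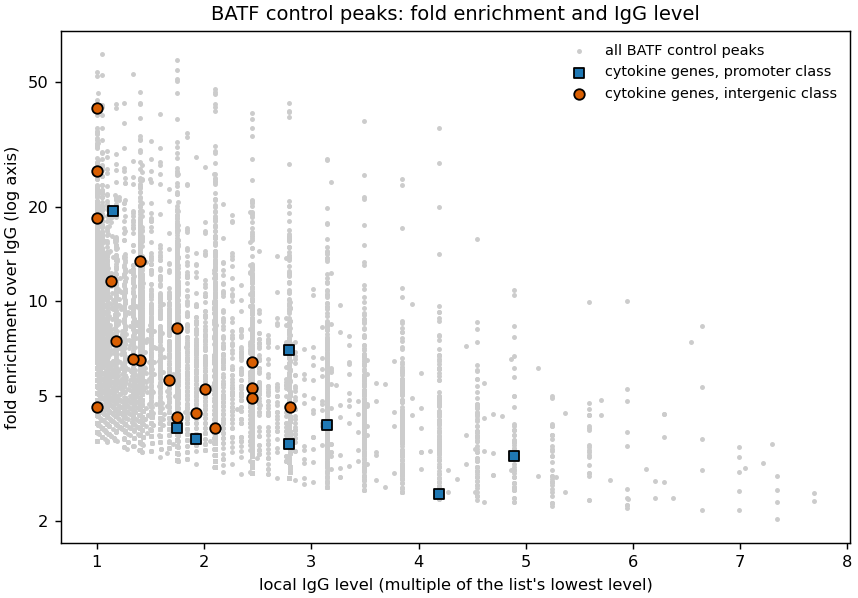
Fold enrichment (y axis, log scale) against the local IgG level (x axis, as a multiple of the lowest level in the list) for all BATF control peaks (grey) and for those of the cytokine genes, by class; 12 of the 15812 peaks lie beyond the x axis. Most promoter squares lie at raised IgG and low fold (median fold 3.80), with the Il10 peak (19.4) and the Tnf peak (7.02) above the others. The highest circles lie at the lowest IgG level.

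RARα and BATF peaks were also assigned to receptors through which these cytokines act. Of 17 receptor genes, 8 had a RARα control peak, 3 a RARα RA peak and 13 a BATF peak in each condition, beside the 7.18%, 3.19%, 48.6% and 38.2% of all protein-coding genes given above. They held 19 RARα control peaks with a median fold of 3.52, of which 16 overlapped a BATF control peak (53.4% over the whole list) and 3 overlapped a RARα RA peak (91.6% of the list had none). The highest RARα control folds were 10.1 for Il21r (91225 bp from the gene) and 9.73 for Ifngr2 (12646 bp). Ifngr1, which had 7 RARα control peaks, came next with 7.44 (86792 bp). Il2rb (4.52, at its promoter) and Il2ra (4.51, 22504 bp away) followed. Ifngr1 and Ifngr2 encode the interferon-γ receptor chains, and Il2ra and Il2rb those of the IL-2 receptor. For BATF, the highest control fold was 52.4 at a peak 38730 bp from Il10rb, with 52.9 with RA. Il2ra followed with 27.2 at 25291 bp (26.3 with RA). Next came 23.4 (19.6 with RA) at a peak shared by Tnfrsf1b (94950 bp) and Tnfrsf8 (26656 bp). The latter is the CD30 receptor for the Tnfsf8 product. Of the 85 BATF control peaks of the receptors, 43 had no overlapping RA peak, against 45.6% of all. Csf2ra, Csf2rb, Csf2rb2 and Il3ra had no peak in any list.

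The genes with the pattern most like that of Ifng were 4930526L06Rik, Ms4a1 and Ms4a4b. Likeness was the Euclidean distance over the 4 lists in log2(highest fold + 1), among 12767 genes that share no peak with Ifng. All 3 were at the same distance, 0.0785, with no RARα peak with RA and the same highest folds of 5.02 (RARα control), 14.0 (BATF control) and 13.2 (BATF with RA), since they share those peaks.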

How the data were processed

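The authors called peaks with MACS 2.2.7.1 (mm10; p-value cutoff 0.001 for RARα and 1e-05 for BATF) on 2 pooled files against 1 IgG file per list, and annotated each peak with a class and gene symbols. Neither the labels nor the methods used here say whether the 2 files are separate samples. The deposited pileup is a signal, the fragments at the summit, which in the BATF control list is scaled to 0.988 per fragment. The deposited fold is the ratio of pileup plus 1 to IgG level plus 1, from which the IgG level was recovered. The deposited p-value and q-value are on the −log10 scale. Fold ranks run within each list.

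The 10 genes and the gene lists were chosen with earlier results of these data known. All 10 genes are named, with every RARα peak and, for BATF, the strongest peaks, those at gene starts and those without an RA peak within 5 kb. From the receptor and other cytokine lists, genes with a RARα control peak (at most 5 by fold) and the 3 of highest BATF control fold are named. Further peaks were given for completeness after their values were seen. Distances run to the RefSeq gene body (GRCm38.p6), overlap means at least 1 bp, and pairs join nearest midpoints. Poisson and Wilson intervals cover counting error only. The interval and overlap steps were tested on simulated peaks first. Scripts ran in Python 3.11.15 with scipy 1.17.1, numpy 2.4.6, matplotlib 3.10.9 and pandas 2.3.3. Alternatives covered thresholds, assignment distance, merging and pairing. Motifs and sequences were not analysed, since no genome sequence was used here.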

Additional observations from a re-analysis of the deposited data

How the results depend on the processing

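Of 43 recomputed values, 33 stayed within 1.5 times the reported count or within the interval of the reported share, and 10 moved. That interval was wide, 50.0 to 86.2%, and treats the pairs as independent. They were not, since some RA peaks were paired with more than 1 control peak within 5 kb. Only a share could change direction, by crossing 50%, and 0 did. A fold of at least 5 left 1 RARα control peak (of 3) and 15 BATF control peaks (of 27). Keeping only peaks within 10 kb of the gene left 1 RARα control, 0 RARα RA, 11 BATF control and 5 BATF RA peaks. Taking any peak within 50 kb, whatever the annotation, removed the RARα RA peak (0) and gave 33 and 20 BATF peaks. The BATF control peaks without an RA peak numbered 6 at 5 kb and 13 when 1 bp had to overlap. Leaving out Tnf, Lta and Ltb, an alternative chosen after seeing the data, gave 16 BATF control peaks and 1 RARα control peak near BATF in place of 2, by construction. Keeping only peaks that name at most 5 genes, also chosen after seeing the data, gave 20 and 12 BATF peaks. The share of BATF pairs within 5 kb that were lower with RA was 71.4% (66.9% over all pairs), and 52.4% without the added constant (59.7%), 61.9% in fragments scaled to depth (66.5%) and 78.6% for overlapping pairs (75.5%). The share for the cytokine genes was thus above that of all pairs in fold and below it in both other measures. No paired analysis was possible because each condition has a single list from pooled files. The BATF RA pool had 71.1% of the control fragments, and no depth-matched calling was run.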

Other observations

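Among 21 other cytokine genes of T cells, RARα control peaks were assigned to 3, against 7.18% of all protein-coding genes. Lif, which encodes leukemia inhibitory factor, had 4 RARα control peaks with a highest fold of 6.61, and 1 with RA at 3.15. Osm, encoding oncostatin M, had 2 with a highest fold of 4.91, 48121 bp from the gene. Fasl, encoding the death ligand FasL, had 1 at 4.19 that lay 1289 bp from the gene. Peaks named for several genes left 6 separate RARα control peaks, and 6 of these overlapped a BATF control peak, against 53.4% of all RARα control peaks. BATF peaks were assigned to 14 of the 21 genes in the control and 11 with RA, against 48.6% and 38.2% of all protein-coding genes. The highest control fold was 22.5 near Tnfsf4 (OX40 ligand, 85370 bp from the gene), with 14.7 with RA. A peak shared by Il17a and Il17f, 6092 bp from Il17a, had 14.3 and 10.6, and Il9, with a peak 1771 bp away, had 13.6 and 16.2. Of the 31 BATF control peaks of these genes, 12 had no overlapping RA peak, against 45.6% of all BATF control peaks. Il4, Il5, Il13, Il24, Areg, Cd40lg and Cd70 had no peak in any list.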
